A study of Mus musculus with 9 samples.

Results

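Ribosome biogenesis and RNA polymerase I genes were followed in microglia sorted from mouse brain in a model of neuromyelitis optica (NMO). The genes were 45 of the 23238 gene symbols in the count files, named by symbol as parts of the machinery that makes ribosomes, and the rule used no measured value, although the list was drawn up with earlier results of these data known. All 45 had a row in the files and all 45 were among the 12292 genes that passed the filter on low counts, with a mean count per library from 46.9 to 6274. The mice were wild-type C57BL/6N females, 12 weeks old, and their brains were taken on day 1. Normal mice were untreated. NMO mice received patient NMO-IgG, an antibody against the astrocyte water channel aquaporin-4, with human complement, injected into the striatum on 1 side. NMO+CL mice received the same injection and, 6 h before it, clodronate liposomes into the peritoneum. Phagocytes that take up such liposomes die, and blood monocytes are lost. Each group had 3 libraries, and each library came from a pool of 3 mice. Cells were sorted as CD45+CD11b+P2ry12+. Control antibody and empty liposomes are not among the groups used here, so the effects of surgery, antibody and complement cannot be told apart in NMO against Normal, nor those of clodronate and liposome in NMO+CL against NMO.

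Ribosomes are made in the nucleolus. RNA polymerase I transcribes the ribosomal RNA precursor, small nucleolar ribonucleoproteins (snoRNPs) modify and help to cut it, and separate sets of assembly factors fold it into the small and the large subunit while ribosomal proteins are added. Cells that enlarge, divide or raise protein synthesis are known to raise this pathway, often through the transcription factor Myc, and resting microglia are small cells that divide slowly.

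Total counts ran from 5788234 to 7837219 per library. The ribosomal RNA entry Rn45s took 16.0% to 31.0% of the counts. NMO replicate 2 had 66 genes without a count that had at least 10 counts in each other library, against 2 to 47 such genes in the other libraries, with 47 in NMO+CL replicate 3 and 30 in NMO replicate 3. Microglia markers, a list of 10 genes, summed to 34170 to 38815 CPM (a share of the library's counts, after TMM scaling by the trimmed mean of M values) in Normal, 29414 to 34234 in NMO and 19906 to 27559 for NMO+CL. Calls are those of edgeR (adjusted p under 0.05) unless another tool is named. Of the 10, 1 fell in NMO against Normal (Siglech), 4 fell between NMO+CL and NMO, 7 fell in NMO+CL against Normal, and 0 rose. Over all tested genes, 0.0244%, 1.07% and 4.43% fell in these comparisons, in the same order. P2ry12, the receptor used in the sort, was at 2608, 2055 and 2665 CPM in Normal, 1756, 1558 and 1629.5 in NMO and 449, 266 and 344 for NMO+CL. Its libraries did not overlap between groups, and it fell by 2.22 on the log2 scale between NMO+CL and NMO (adjusted p = 1.73e-05) and by 2.79 between NMO+CL and Normal (4.62e-07). Both calls held when any 1 library was left out. A list of 11 genes of proliferating cells summed to 157 to 178 CPM in Normal, 309 to 382 in NMO and 255 to 346 for NMO+CL. Of these 11 genes, 1 rose in NMO against Normal, Mcm7, and 3 rose in NMO+CL against Normal, Mcm5, Mcm6 and Mcm7, all subunits of the replicative helicase, while Mki67, Top2a, Ccnb1 and Cdk1 were not called in either. DESeq2 called 4 in NMO (Mcm2, Mcm5, Mcm6 and Mcm7) and 5 in NMO+CL against Normal, and limma-voom 0 and 1. The shares of all tested genes called higher in these comparisons were 0.472% and 4.79% by edgeR. They were 1.32% and 6.47% by DESeq2 and 0.301% and 4.48% by limma-voom. The 7 neutrophil genes summed to 40.0 to 528 CPM in Normal, 101 to 377 in NMO and 261 to 1289 for NMO+CL, the 8 monocyte genes to 25.3 to 57.0, 41.1 to 79.0 and 40.2 to 101, and the 6 border macrophage genes to 23.2 to 35.9, 10.8 to 35.0 and 16.97 to 38.6, with Cd163 at 0 in NMO and in NMO+CL. Lymphocyte genes (6) summed to at most 7.17 CPM in any library, with Cd3e at 0 in each group, neuronal genes (5) to at most 47.5, and astrocyte and oligodendrocyte genes (8) to 98.3 to 274. Outside the microglia and proliferation lists, 1 gene rose by edgeR, the monocyte gene Fn1, from 1.18 to 6.47 CPM in Normal and 3.04 to 10.7 in NMO to 16.3 to 29.2 for NMO+CL (2.45 on the log2 scale against Normal, adjusted p = 0.0218), and 1 fell, the astrocyte gene Slc1a3, by 0.88 in the same comparison (0.027). For the neutrophil genes S100a8 and S100a9, limma-voom gave adjusted p = 0.00981 and 0.0113 in that comparison (log2 fold changes 1.96 and 2.03), against 0.127 and 0.133 by edgeR. These marker genes were named after their values were seen. The calls of Siglech in NMO, Fn1 and Slc1a3 were each lost without some single libraries: Siglech without any 1 Normal library and without NMO replicate 1 or 3, Fn1 without Normal replicate 1 or 3 and without NMO+CL replicate 1 or 2, and Slc1a3 without Normal replicate 2 or 3 and without NMO+CL replicate 1 or 2. The part of these cell types, and of the lower microglia markers, in the results was not tested, and in bulk samples a shift in the mix of cells cannot be told apart from a change in RNA per cell.

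The 45 genes took 0.181% to 0.254% of the counts in the Normal libraries, 0.398% to 0.463% in the NMO libraries and 0.512% to 0.639% in the NMO+CL libraries. Their summed level was 2041, 2628 and 2315 CPM in Normal, 4334, 4293 and 3929 CPM in NMO and 5251, 6200 and 5608 CPM in NMO+CL. All 3 NMO libraries lay above all Normal libraries, and all 3 NMO+CL libraries lay above all NMO libraries. The mean was 2328 ± 294 CPM in Normal, 4185 ± 223 in NMO and 5686 ± 479 for NMO+CL (SD, n = 3). Without Ncl the sums were 1558 to 2042, 3039 to 3438 and 3973 to 4753 CPM, in the same order. The median level over the 45 genes was 28.05 to 32.1 CPM in Normal, 49.3 to 49.8 in NMO and 53.5 to 66.5 for NMO+CL. The heat map shows each gene in each library.

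**Figure D1:**
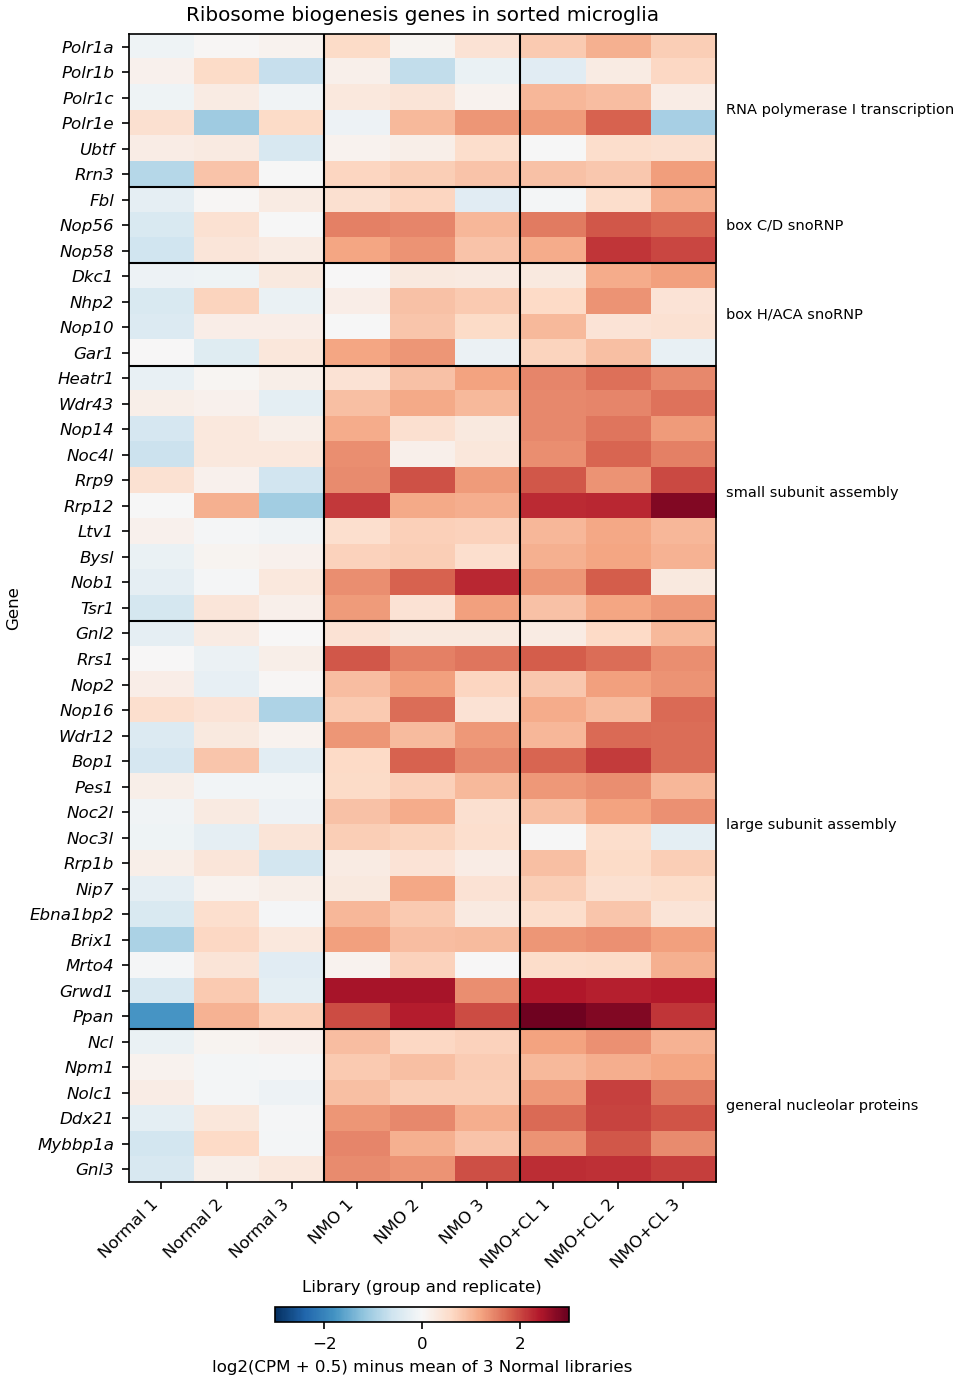
Heat map of the 45 genes (rows, by role) in the 9 libraries (columns), coloured by log2(CPM + 0.5) minus the mean of the 3 Normal libraries. Most rows are redder in NMO than in Normal and redder still in NMO+CL, while in 9 rows, Polr1b, Polr1c, Polr1e, Ubtf, Rrn3, Fbl, Nhp2, Gar1 and Ebna1bp2, each pair of groups overlaps.

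The first comparison asked what the injury did to these genes. In NMO against Normal, 6 of the 45 genes rose and 0 fell at an adjusted p under 0.05 (edgeR quasi-likelihood test, Benjamini-Hochberg over all tested genes), where 0.472% of all tested genes rose and 0.0244% fell. The 6 were Gnl3, Ddx21, Rrs1, Wdr43, Nop56 and Grwd1. By the thresholds in the study's text, a 1.5-fold change with p under 0.05, 28 genes were higher and 0 lower, against 5.2% of all tested genes higher. Here p was taken before adjustment, since the study does not state which was used. In 27 genes the 3 NMO libraries all lay above the 3 Normal libraries, against 9.21% of all tested genes. The log2 fold change was above 0 in 44 of the 45 genes (49.3% of all tested genes), and its median was 0.79, beside -0.01 over all tested genes. DESeq2 called 16 of the 45 higher, where it called 1.32% of all tested genes higher, and limma-voom called 6, where it called 0.301%. The 10 genes that DESeq2 added were Nop58, Heatr1, Rrp9, Nob1, Wdr12, Noc2l, Ppan, Ncl, Npm1 and Mybbp1a, and limma-voom called Ncl and not Grwd1. The edgeR count fell to 2 without Normal replicate 1, Normal replicate 3 or NMO replicate 1 and to 3 without NMO replicate 2. The share of all tested genes called higher fell as well, from 0.472% to 0.163%, 0.147%, 0.154% and 0.253% in these settings. Ddx21 and Gnl3 were called under all 17 alternative settings.

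The second comparison asked whether depletion by clodronate changed these genes in the injured brain. Between NMO+CL and NMO, edgeR called 0 of the 45 genes in either direction, where 0.529% of all tested genes were called higher and 1.07% lower. Before adjustment, 11 genes were higher at p under 0.05 and 0 lower (4.92% of all tested genes higher), and 5 of the 11 also passed a 1.5-fold change (4.09% of all tested genes). The libraries did not overlap, with NMO+CL higher, in 17 genes, against 7.89% of all tested genes. Log2 fold changes were above 0 in 39 genes (49.7% of all tested genes), and their median was 0.38, beside -0.01 over all tested genes. DESeq2 called 3 genes higher, Nolc1, Ncl and Ddx21 (1.55% of all tested genes), and limma-voom called 1, Nolc1 (0.667% of all tested genes). Without NMO+CL replicate 1, edgeR called 1, with 0.478% of all tested genes called higher.

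Set against the untreated mice, the clodronate group showed the largest count of calls. In NMO+CL against Normal, 27 of the 45 genes rose and 0 fell, where 4.79% of all tested genes rose and 4.43% fell. The libraries did not overlap, with NMO+CL higher, in 34 genes (13.8% of all tested genes), and 34 were higher by the study's thresholds (9.9% of all tested genes). All 45 log2 fold changes were above 0 (49.4% of all tested genes), from 0.09 for Noc3l to 2.33 for Grwd1, with a median of 1.17 beside -0.01 over all tested genes. DESeq2 called 29 (6.47% of all tested genes) and limma-voom 27 (4.48%). Of the 27 genes, 18 were called under all 17 alternatives. The 3 comparisons share libraries, and their values are therefore given side by side without a measure of likeness.

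**Figure D2:**
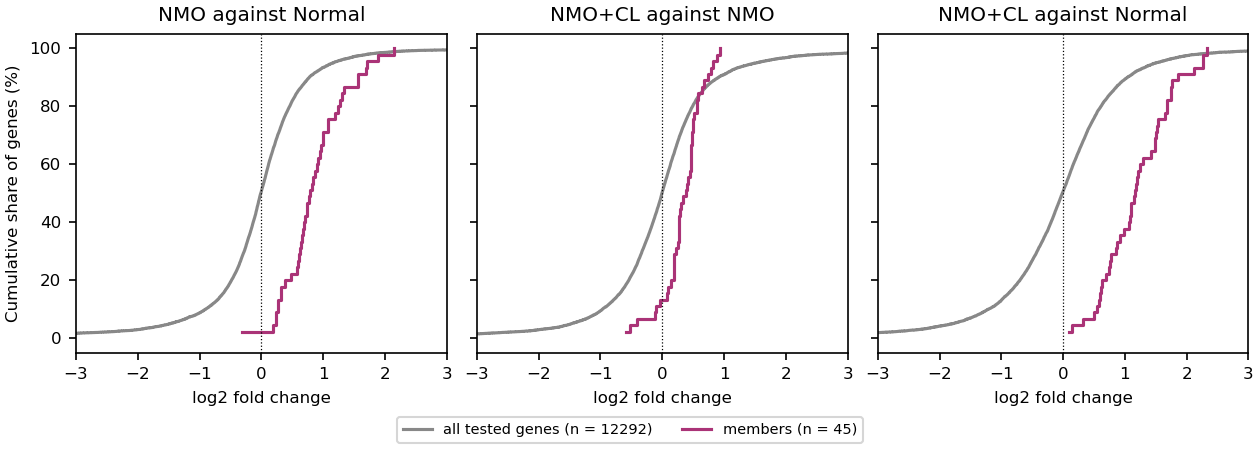
Cumulative share of genes (vertical axis, %) by log2 fold change (horizontal axis) in the 3 comparisons, for all 12292 tested genes in grey and the 45 ribosome biogenesis genes in purple. The grey curves cross 50% near 0, and the purple curves cross it at 0.79, 0.38 and 1.17.

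**Figure D3:**
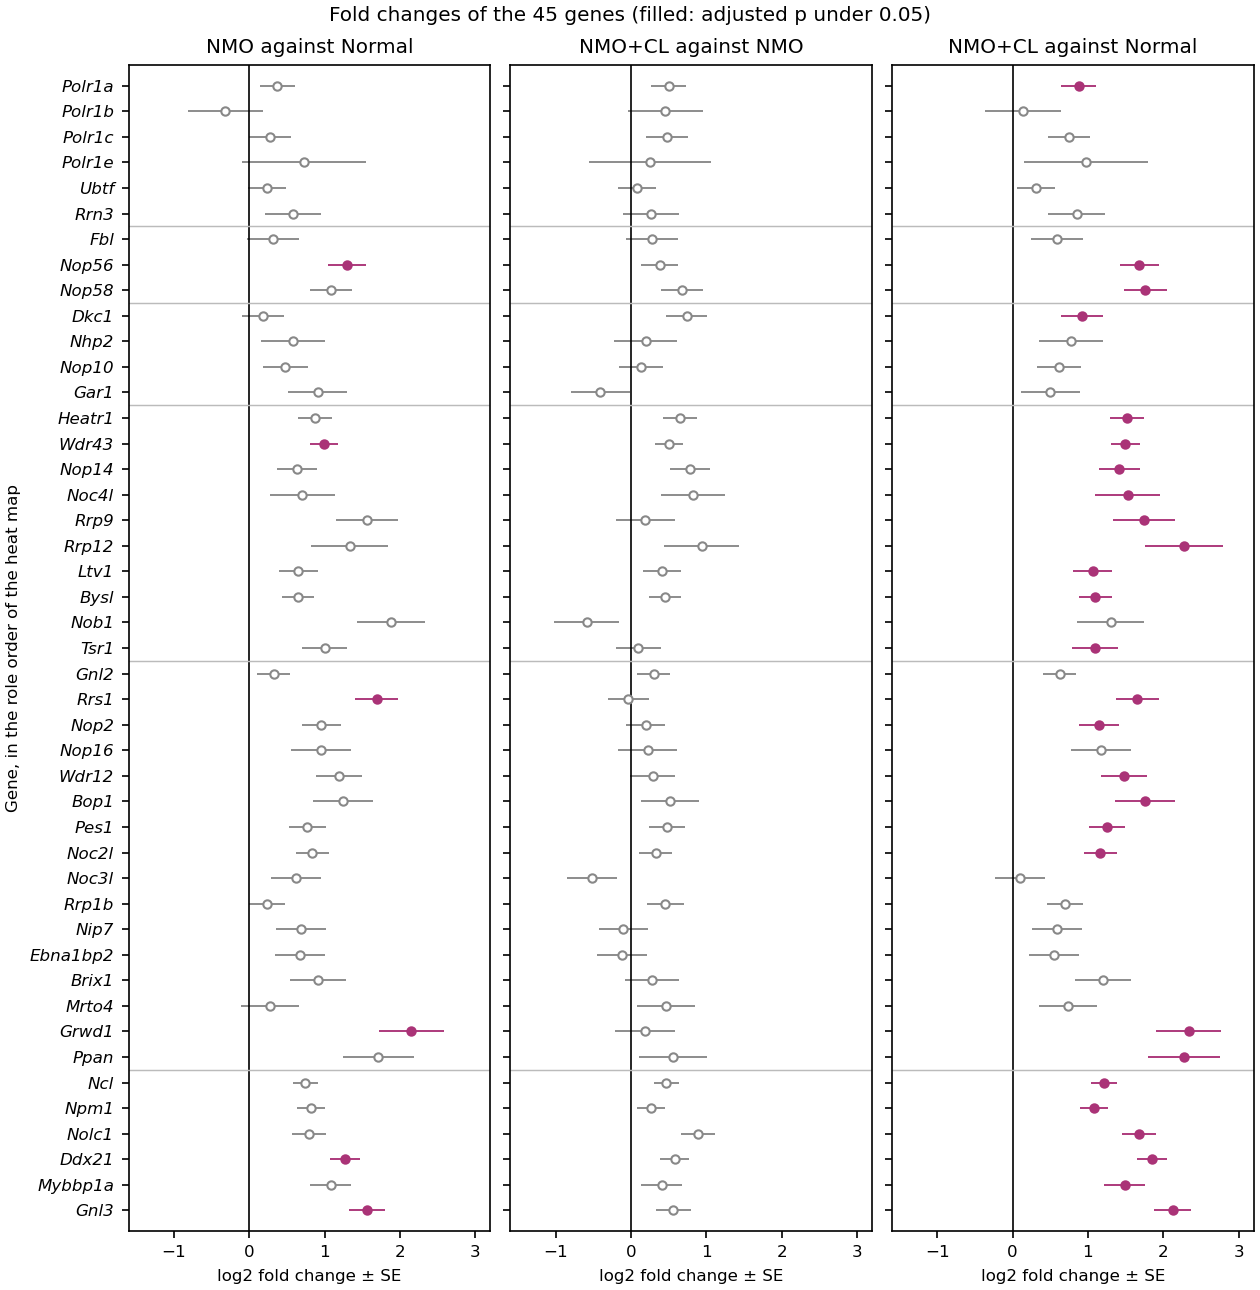
Log2 fold change ± SE of each of the 45 genes in the 3 comparisons, in the order of the heat map, filled where the edgeR adjusted p was under 0.05. Filled points number 6, 0 and 27 from left to right, and Polr1b is the only gene left of 0 in NMO against Normal.

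Of the 6 genes of RNA polymerase I and its initiation factors, 0 were called in NMO against Normal, 0 between NMO+CL and NMO, and 1, Polr1a, in NMO+CL against Normal, with median log2 fold changes of 0.32, 0.36 and 0.80. In so few genes these counts are near the background of 0.472%, 0.529% and 4.79% of all tested genes. The other 39 genes had medians of 0.87, 0.38 and 1.21, and the difference between role groups was not tested. Polr1a, which encodes the largest, catalytic subunit, was measured at 42.9, 47.9 and 50.5 CPM in the Normal libraries, 70.2, 49.7 and 63.2 in NMO and 81.9, 98.2 and 79.3 in NMO+CL. The NMO+CL libraries lay above all others, and the NMO and Normal libraries overlapped. For Polr1a the log2 fold change was 0.37 ± 0.23 (SE) for NMO over Normal (adjusted p = 0.683), 0.50 ± 0.23 for NMO+CL over NMO (0.381) and 0.88 ± 0.23 for NMO+CL over Normal (0.0234). The call in NMO+CL against Normal was lost without any 1 of the 3 Normal libraries and without NMO+CL replicate 2. Polr1b, the second largest subunit, which forms the active centre with Polr1a, was measured at 13.7, 18.96 and 7.57 CPM in the Normal libraries, 14.1, 7.30 and 10.9 in NMO and 9.78, 14.9 and 19.7 in NMO+CL. Its 3 groups overlapped throughout. Polr1b had a log2 fold change of -0.32 ± 0.50 for NMO over Normal (adjusted p = 0.947), 0.46 ± 0.50 for NMO+CL over NMO (0.797) and 0.14 ± 0.50 for NMO+CL over Normal (0.93). The sign for Polr1b changed when single libraries were left out, and 406 annotated genes share a stretch of its 3′ end, so reads counted there may come from other genes. Ubtf, the factor that coats active ribosomal RNA genes, was measured at 78.6, 82.02 and 47.95 CPM in the Normal libraries, 72.8, 76.4 and 97.02 in NMO and 67.6, 97.04 and 95.3 in NMO+CL. All 3 groups overlapped. Ubtf differed on the log2 scale by 0.24 ± 0.25 for NMO over Normal (adjusted p = 0.891), 0.08 ± 0.25 for NMO+CL over NMO (0.957) and 0.32 ± 0.25 for NMO+CL over Normal (0.55). Rrn3, which carries the polymerase to the promoter, was measured at 10.995, 37.2 and 19.9 CPM in the Normal libraries, 31.6, 33.8 and 36.8 in NMO and 37.6, 35.97 and 49.2 in NMO+CL. Normal replicate 1 was the lowest library, while Normal replicate 2 lay above all NMO libraries. Fold changes of Rrn3 on the log2 scale were 0.58 ± 0.37 for NMO over Normal (adjusted p = 0.699), 0.27 ± 0.37 for NMO+CL over NMO (0.855) and 0.85 ± 0.37 for NMO+CL over Normal (0.185). The remaining subunit genes, Polr1c and Polr1e, had log2 fold changes of 0.27 and 0.73 for NMO over Normal, 0.48 and 0.25 for NMO+CL over NMO and 0.75 and 0.98 for NMO+CL over Normal, and were not called.

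The snoRNP genes were of both classes. Box C/D snoRNPs guide methylation of ribosomal RNA, and box H/ACA snoRNPs guide its conversion of uridine to pseudouridine. Among the 3 box C/D genes, 1 rose in NMO and 2 in NMO+CL against Normal, and among the 4 box H/ACA genes 0 and 1, a difference that was not tested. Of all tested genes, 0.472% and 4.79% rose in these comparisons. With only 4 genes, 1 call is near the latter share. Nop56, a scaffold protein of the box C/D particle, was measured at 30.8, 58.7 and 42.2 CPM in the Normal libraries, 122, 118 and 84.5 in NMO and 126, 155 and 143 in NMO+CL. The 3 groups did not overlap, in the order Normal, NMO, NMO+CL. For Nop56 the log2 fold change was 1.30 ± 0.25 for NMO over Normal (adjusted p = 0.0241), 0.38 ± 0.25 for NMO+CL over NMO (0.576) and 1.68 ± 0.25 for NMO+CL over Normal (0.000426). The call in NMO was lost without Normal replicate 1, Normal replicate 3, NMO replicate 1 or NMO replicate 2. Nop58, the partner of Nop56 in that particle, was measured at 45.9, 90.6 and 82.6 CPM in the Normal libraries, 159.7, 178 and 127 in NMO and 152, 311 and 280.2 in NMO+CL. NMO and NMO+CL lay above Normal without overlap, and NMO+CL replicate 1 fell among the NMO libraries. Nop58 had a log2 fold change of 1.08 ± 0.28 for NMO over Normal (adjusted p = 0.114), 0.68 ± 0.28 for NMO+CL over NMO (0.305) and 1.76 ± 0.29 for NMO+CL over Normal (0.000842). Fbl, the methyltransferase of the particle, had log2 fold changes of 0.31, 0.28 and 0.59 in the 3 comparisons, none called. Dkc1, the pseudouridine synthase of box H/ACA particles, was measured at 36.8, 36.9 and 49.6 CPM in the Normal libraries, 40.9, 49.7 and 49.3 in NMO and 49.9, 87.97 and 95.4 in NMO+CL. The NMO and Normal libraries overlapped, and the NMO+CL libraries were the 3 highest, with replicate 1 just above the top NMO value. Dkc1 differed on the log2 scale by 0.18 ± 0.28 for NMO over Normal (adjusted p = 0.946), 0.74 ± 0.28 for NMO+CL over NMO (0.24) and 0.92 ± 0.28 for NMO+CL over Normal (0.0463). That call was the least stable of the 27, holding in 9 of 17 alternatives, and it was lost without any 1 Normal library, without NMO replicate 1, and without NMO+CL replicate 2 or 3, and limma-voom did not make it (adjusted p = 0.0639). Nhp2, Nop10 and Gar1, the other core proteins of the particle, had log2 fold changes from 0.48 to 0.91 in NMO against Normal, from -0.40 to 0.20 between NMO+CL and NMO, and from 0.50 to 0.78 in NMO+CL against Normal, with no call.

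Most factors of small subunit assembly rose in NMO+CL against Normal. Of 10 genes, 1 was called in NMO against Normal, 0 between NMO+CL and NMO, and 9 in NMO+CL against Normal, with median log2 fold changes of 0.93, 0.48 and 1.46. Over all tested genes, 0.472%, 0.529% and 4.79% were called higher in these comparisons. Their summed level was 370 ± 35.5 CPM in Normal, 697 ± 4.50 in NMO and 984 ± 37.7 for NMO+CL (SD, n = 3). Wdr43, a component of the complex that loads first on the ribosomal RNA precursor, was measured at 140.4, 138 and 101 CPM in the Normal libraries, 236, 275 and 246 in NMO and 342, 344 and 386 in NMO+CL. The 3 groups did not overlap. Fold changes of Wdr43 on the log2 scale were 0.99 ± 0.19 for NMO over Normal (adjusted p = 0.0204), 0.50 ± 0.19 for NMO+CL over NMO (0.23) and 1.498 ± 0.19 for NMO+CL over Normal (9.25e-05). The call in NMO was lost without any 1 Normal library and without NMO replicate 1 or 2. Heatr1, a large scaffold of the same complex, was measured at 50.4, 61.4 and 66.1 CPM in the Normal libraries, 79.96, 109 and 137 in NMO and 165, 185 and 161 in NMO+CL. The 3 groups were again separate, with the lowest NMO+CL library at 161 CPM and the highest Normal library at 66.1. For Heatr1 the log2 fold change was 0.87 ± 0.23 for NMO over Normal (adjusted p = 0.112), 0.65 ± 0.22 for NMO+CL over NMO (0.193) and 1.52 ± 0.23 for NMO+CL over Normal (0.000426). Bysl, which stays on the particle from the nucleolus to late maturation, was measured at 41.6, 50.7 and 53.001 CPM in the Normal libraries, 78.5, 80.9 and 68.4 in NMO and 101, 111 and 99.1 in NMO+CL. No library of 1 group reached another group. Bysl had a log2 fold change of 0.65 ± 0.22 for NMO over Normal (adjusted p = 0.262), 0.45 ± 0.21 for NMO+CL over NMO (0.401) and 1.10 ± 0.22 for NMO+CL over Normal (0.00333). Ltv1, a late factor that leaves the particle in the cytoplasm, was measured at 28.05, 24.98 and 23.7 CPM in the Normal libraries, 36.6, 42.1 and 41.8 in NMO and 51.2, 57.5 and 51.7 in NMO+CL. The groups were separate here too. Ltv1 differed on the log2 scale by 0.65 ± 0.26 for NMO over Normal (adjusted p = 0.429), 0.41 ± 0.26 for NMO+CL over NMO (0.557) and 1.06 ± 0.26 for NMO+CL over Normal (0.0149). The last call was lost without Normal replicate 2 or 3 and without NMO+CL replicate 2.

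Nop14, a nucleolar factor that works as a pair with Noc4l, was measured at 31.6, 55.5 and 50.8 CPM in the Normal libraries, 96.7, 62.1 and 54.9 in NMO and 122, 137 and 109.9 in NMO+CL. NMO replicate 3 overlapped Normal, and all NMO+CL libraries were higher than both other groups. Fold changes of Nop14 on the log2 scale were 0.63 ± 0.27 for NMO over Normal (adjusted p = 0.462), 0.79 ± 0.27 for NMO+CL over NMO (0.183) and 1.42 ± 0.27 for NMO+CL over Normal (0.00266). Noc4l was measured at 6.69, 13.5 and 13.6 CPM in the Normal libraries, 29.3, 12.1 and 13.8 in NMO and 29.2, 37.3 and 31.4 in NMO+CL. In NMO, replicate 1 alone was raised to the NMO+CL level while replicates 2 and 3 were near the Normal values. For Noc4l the log2 fold change was 0.70 ± 0.43 for NMO over Normal (adjusted p = 0.677), 0.82 ± 0.42 for NMO+CL over NMO (0.453) and 1.53 ± 0.43 for NMO+CL over Normal (0.033). The call was lost without any 1 Normal library and without NMO+CL replicate 2 or 3. Rrp12, which is needed for maturation and export of the particle, was measured at 5.74, 12.6 and 2.52 CPM in the Normal libraries, 26.7, 13.4 and 12.8 in NMO and 29.3, 29.6 and 42.6 in NMO+CL. Normal libraries were low and uneven, and NMO+CL libraries were the 3 highest. Rrp12 had a log2 fold change of 1.33 ± 0.51 for NMO over Normal (adjusted p = 0.392), 0.94 ± 0.50 for NMO+CL over NMO (0.466) and 2.27 ± 0.52 for NMO+CL over Normal (0.0096). Without Normal replicate 2 the log2 fold change against Normal became 3.03, and without Normal replicate 1 the call was lost. Rrp9, a protein of the U3 snoRNP that cuts the precursor, was measured at 10.8, 8.58 and 5.05 CPM in the Normal libraries, 21.5, 30.9 and 19.7 in NMO and 29.8, 20.6 and 32.03 in NMO+CL. NMO and NMO+CL overlapped each other and both lay above Normal. Rrp9 differed on the log2 scale by 1.56 ± 0.41 for NMO over Normal (adjusted p = 0.117), 0.19 ± 0.39 for NMO+CL over NMO (0.916) and 1.75 ± 0.41 for NMO+CL over Normal (0.0112). That call was lost without Normal replicate 3.

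Tsr1, a factor related to GTPases that occupies the late particle, was measured at 19.6, 36.4 and 31.6 CPM in the Normal libraries, 69.3, 38.7 and 67.4 in NMO and 52.1, 64.8 and 70.9 in NMO+CL. All libraries of the injected mice lay above Normal, and NMO replicate 2 at 38.7 CPM came close to the highest Normal library at 36.4. Fold changes of Tsr1 on the log2 scale were 1.00 ± 0.30 for NMO over Normal (adjusted p = 0.207), 0.10 ± 0.30 for NMO+CL over NMO (0.953) and 1.10 ± 0.30 for NMO+CL over Normal (0.0298). The call was lost without Normal replicate 1 or 3 and without NMO+CL replicate 2 or 3. Nob1, the nuclease that makes the final cut of small subunit RNA, was measured at 6.53, 7.83 and 10.1 CPM in the Normal libraries, 21.9, 28.5 and 40.2 in NMO and 20.9, 29.5 and 9.93 in NMO+CL. NMO libraries were all above Normal, whereas NMO+CL replicate 3 lay within the Normal range. For Nob1 the log2 fold change was 1.89 ± 0.45 for NMO over Normal (adjusted p = 0.0764), -0.59 ± 0.43 for NMO+CL over NMO (0.647) and 1.30 ± 0.45 for NMO+CL over Normal (0.0804). Of the small subunit genes, Nob1 was the one that edgeR did not call in any comparison, while DESeq2 called it in NMO against Normal (adjusted p = 0.0133).

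Among large subunit factors, Rrs1 and Grwd1 rose in both injected groups against Normal. Of 16 genes, 2 were called in NMO against Normal, 0 between NMO+CL and NMO, and 8 in NMO+CL against Normal, with medians of 0.88, 0.28 and 1.17. The shares of all tested genes called higher were 0.472%, 0.529% and 4.79%. Their sum was 507 ± 78.3 CPM in Normal, 880 ± 101 in NMO and 1068 ± 60.9 for NMO+CL (SD, n = 3). Rrs1, which helps to bring the smallest ribosomal RNA into the subunit, was measured at 14.98, 13.1 and 16.99 CPM in the Normal libraries, 55.8, 43.3 and 46.1 in NMO and 53.5, 48.4 and 40.03 in NMO+CL. The lowest library of the injected mice had 40.0 CPM and the highest Normal library 16.99, and NMO and NMO+CL overlapped. Rrs1 had a log2 fold change of 1.69 ± 0.29 for NMO over Normal (adjusted p = 0.00944), -0.03 ± 0.28 for NMO+CL over NMO (0.987) and 1.66 ± 0.29 for NMO+CL over Normal (0.00133). The call in NMO was lost without any 1 Normal library or without NMO replicate 1. Grwd1, a chaperone of a ribosomal protein of the large subunit, was measured at 4.46, 11.4 and 5.22 CPM in the Normal libraries, 37.97, 38.2 and 17.9 in NMO and 36.6, 34.7 and 35.7 in NMO+CL. NMO replicate 3 was lower than the other NMO libraries and still above Normal, and NMO+CL libraries fell between the NMO values. Grwd1 differed on the log2 scale by 2.15 ± 0.43 for NMO over Normal (adjusted p = 0.0301), 0.18 ± 0.40 for NMO+CL over NMO (0.923) and 2.33 ± 0.43 for NMO+CL over Normal (0.00194). The call in NMO was lost without Normal replicate 1, Normal replicate 3, NMO replicate 1 or NMO replicate 2, and limma-voom did not make it (adjusted p = 0.115). Ppan, which acts in removal of a spacer of the precursor, was measured at 3.35, 26.3 and 20.9 CPM in the Normal libraries, 50.04, 65.96 and 49.8 in NMO and 98.6, 88.6 and 57.3 in NMO+CL. Normal replicate 1 was far below the other Normal libraries, and all libraries of injected mice were above the highest Normal value. Fold changes of Ppan on the log2 scale were 1.71 ± 0.47 for NMO over Normal (adjusted p = 0.138), 0.56 ± 0.45 for NMO+CL over NMO (0.681) and 2.27 ± 0.47 for NMO+CL over Normal (0.00498).

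Pes1, Bop1 and Wdr12 form 1 complex, PeBoW, which is required to process large subunit RNA, and all 3 rose in NMO+CL against Normal. Pes1 was measured at 37.3, 31.2 and 31.1 CPM in the Normal libraries, 49.8, 54.8 and 65.2 in NMO and 82.9, 87.6 and 66.8 in NMO+CL. The 3 groups were separate. For Pes1 the log2 fold change was 0.77 ± 0.24 for NMO over Normal (adjusted p = 0.231), 0.48 ± 0.24 for NMO+CL over NMO (0.43) and 1.25 ± 0.24 for NMO+CL over Normal (0.00314). Bop1 was measured at 9.56, 24.98 and 10.9 CPM in the Normal libraries, 20.996, 48.1 and 38.6 in NMO and 47.4, 60.9 and 45.5 in NMO+CL. NMO replicate 1 lay under Normal replicate 2, and the NMO+CL libraries were above all Normal libraries. Bop1 had a log2 fold change of 1.24 ± 0.39 for NMO over Normal (adjusted p = 0.231), 0.51 ± 0.38 for NMO+CL over NMO (0.652) and 1.75 ± 0.40 for NMO+CL over Normal (0.00902). The call was lost without Normal replicate 1 or 3. Wdr12 was measured at 14.5, 24.2 and 21.2 CPM in the Normal libraries, 49.7, 38.2 and 49.2 in NMO and 39.5, 64.6 and 63.3 in NMO+CL. Both injected groups lay above Normal and overlapped each other. Wdr12 differed on the log2 scale by 1.19 ± 0.30 for NMO over Normal (adjusted p = 0.104), 0.29 ± 0.30 for NMO+CL over NMO (0.781) and 1.48 ± 0.31 for NMO+CL over Normal (0.00471).

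Noc2l, which takes part in transport of the early particle and also binds histones, was measured at 74.3, 96.3 and 72.7 CPM in the Normal libraries, 148, 175 and 112 in NMO and 151, 186 and 208 in NMO+CL. The lowest library of the injected mice, NMO replicate 3, was above the highest Normal library. Fold changes of Noc2l on the log2 scale were 0.84 ± 0.22 for NMO over Normal (adjusted p = 0.121), 0.33 ± 0.22 for NMO+CL over NMO (0.594) and 1.17 ± 0.22 for NMO+CL over Normal (0.00274). An exon of Samd11 lies on the opposite strand over the 3′ end of Noc2l, and Samd11 was itself higher in NMO+CL against Normal (1.18, adjusted p = 0.0121). Since the use of strand in counting was not stated, reads of the pair cannot be told apart. Nop2, a methyltransferase of large subunit RNA, was measured at 36.3, 26.5 and 31.97 CPM in the Normal libraries, 60.5, 73.9 and 49.6 in NMO and 54.9, 74.7 and 81.03 in NMO+CL. NMO and NMO+CL overlapped, above Normal. For Nop2 the log2 fold change was 0.96 ± 0.26 for NMO over Normal (adjusted p = 0.141), 0.19 ± 0.26 for NMO+CL over NMO (0.847) and 1.15 ± 0.26 for NMO+CL over Normal (0.00983). The call was lost without Normal replicate 2. The other 8 large subunit genes, Gnl2, Nop16, Noc3l, Rrp1b, Nip7, Ebna1bp2, Brix1 and Mrto4, were not called by edgeR. Their log2 fold changes were 0.24 to 0.95 for NMO over Normal, -0.52 to 0.46 for NMO+CL over NMO and 0.09 to 1.19 for NMO+CL over Normal, where the lowest adjusted p was 0.0527, for Brix1. In that comparison DESeq2 called Brix1 and Nop16 (adjusted p = 0.0306 and 0.0484), and limma-voom called Brix1 (0.0371).

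Genes for proteins found throughout the nucleolus were all called higher in NMO+CL against Normal. Of 6 genes, 2 were called in NMO against Normal, 0 between NMO+CL and NMO, and 6 in NMO+CL against Normal, with medians of 0.95, 0.51 and 1.58. Beside these counts, 0.472%, 0.529% and 4.79% of all tested genes were called higher. Their sum was 994 ± 120 CPM in Normal, 1902 ± 131 in NMO and 2707 ± 282 for NMO+CL (SD, n = 3). Gnl3, also called nucleostemin, a nucleolar GTPase of growing cells, was measured at 35.2, 55.98 and 61.2 CPM in the Normal libraries, 132, 127 and 191 in NMO and 230.4, 226 and 208 in NMO+CL. Its 3 groups were separate. Gnl3 had a log2 fold change of 1.56 ± 0.24 for NMO over Normal (adjusted p = 0.00465), 0.56 ± 0.23 for NMO+CL over NMO (0.309) and 2.12 ± 0.24 for NMO+CL over Normal (3.64e-05). Ddx21, an RNA helicase that acts on ribosomal RNA and snoRNAs, was measured at 145, 224 and 174 CPM in the Normal libraries, 448, 487 and 378 in NMO and 576, 724 and 662 in NMO+CL. The groups did not overlap. Ddx21 differed on the log2 scale by 1.27 ± 0.20 for NMO over Normal (adjusted p = 0.00505), 0.58 ± 0.19 for NMO+CL over NMO (0.175) and 1.85 ± 0.20 for NMO+CL over Normal (2.3e-05). Nolc1, a chaperone that moves snoRNPs to the nucleolus, was measured at 66.3, 54.6 and 51.7 CPM in the Normal libraries, 107, 96.2 and 96.4 in NMO and 143, 238 and 173 in NMO+CL. The NMO libraries lay close together, between the Normal and the NMO+CL libraries. Fold changes of Nolc1 on the log2 scale were 0.79 ± 0.22 for NMO over Normal (adjusted p = 0.15), 0.89 ± 0.22 for NMO+CL over NMO (0.0537) and 1.68 ± 0.23 for NMO+CL over Normal (0.000156). Of the 45 genes, Nolc1 had the lowest p in NMO+CL against NMO, 0.000883 before adjustment.

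Ncl, nucleolin, which binds the precursor and loosens nucleolar chromatin, was measured at 484, 586 and 602 CPM in the Normal libraries, 1054, 855 and 889.9 in NMO and 1278, 1447 and 1149.6 in NMO+CL. The order was the same in every library, Normal below NMO below NMO+CL. For Ncl the log2 fold change was 0.74 ± 0.17 for NMO over Normal (adjusted p = 0.0587), 0.47 ± 0.17 for NMO+CL over NMO (0.207) and 1.21 ± 0.17 for NMO+CL over Normal (0.000225). DESeq2 and limma-voom called Ncl in NMO against Normal (adjusted p = 0.000688 and 0.0273). Npm1, a histone and ribosome chaperone, was measured at 89.7, 80.8 and 81.8 CPM in the Normal libraries, 145, 158 and 142 in NMO and 164, 180.5 and 189.9 in NMO+CL. No overlap was seen between any 2 groups. Npm1 had a log2 fold change of 0.82 ± 0.19 for NMO over Normal (adjusted p = 0.0587), 0.26 ± 0.18 for NMO+CL over NMO (0.615) and 1.08 ± 0.19 for NMO+CL over Normal (0.00123). Mybbp1a, a nucleolar protein that restrains RNA polymerase I, was measured at 40.5, 91.05 and 57.7 CPM in the Normal libraries, 165, 126 and 109 in NMO and 153, 217 and 159.8 in NMO+CL. NMO and NMO+CL lay above Normal and overlapped each other. Mybbp1a differed on the log2 scale by 1.08 ± 0.27 for NMO over Normal (adjusted p = 0.1), 0.41 ± 0.27 for NMO+CL over NMO (0.59) and 1.49 ± 0.28 for NMO+CL over Normal (0.0021).

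**Figure D4:**
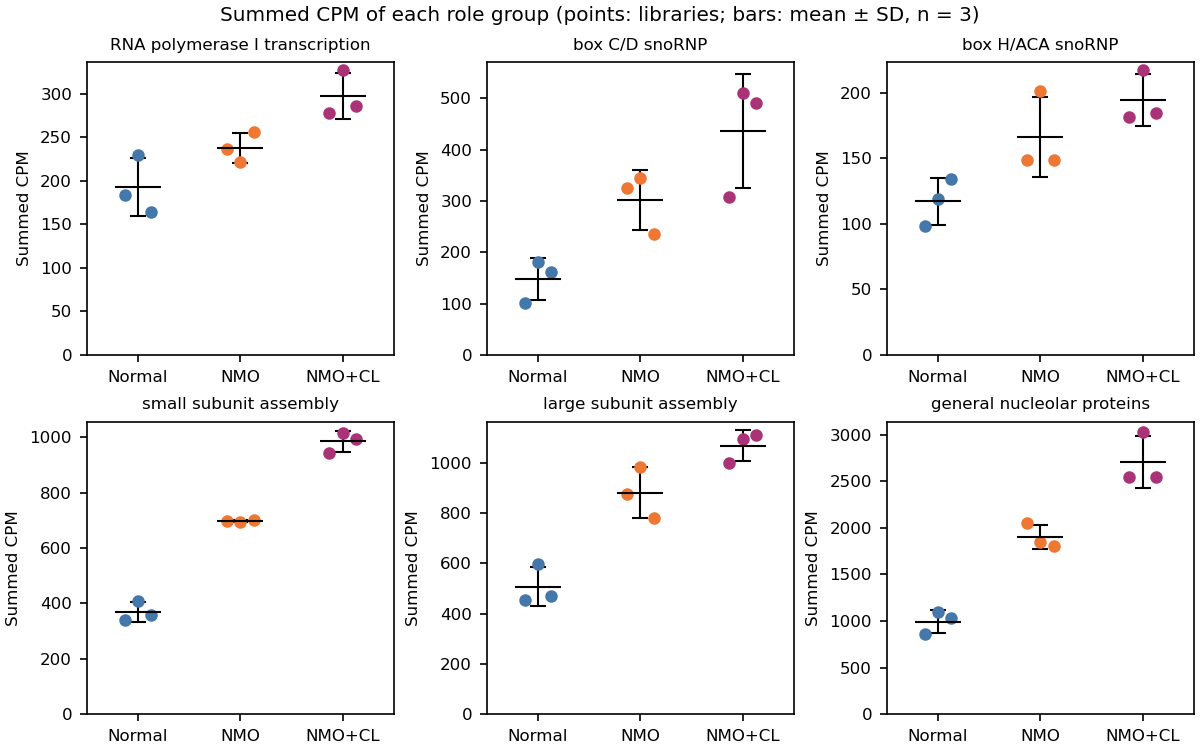
Summed CPM of each of the 6 role groups (panels) by group of mice, with 1 point per library and bars for the mean ± SD (n = 3), each axis starting at 0. In small subunit assembly the groups are separate, at 341 to 409, 693 to 701 and 943 to 1016 CPM, whereas in RNA polymerase I transcription the highest Normal library, 229 CPM, is above the lowest NMO library, 222 CPM.

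Genes of the same pathway outside the 45 were read from a list of 98, all of which were tested. In NMO against Normal, 1 of the 98 rose and 0 fell, where 0.472% of all tested genes rose. The gene was Ftsj3, a methyltransferase of large subunit assembly, at 63.9, 76.8 and 55.02 CPM in Normal, 196, 165 and 122 in NMO and 247, 316 and 283 for NMO+CL. The 3 groups were separate, with log2 differences of 1.30 ± 0.22 for NMO over Normal (adjusted p = 0.00908) and 2.11 in NMO+CL against Normal (adjusted p = 2.01e-05). Between NMO+CL and NMO, 1 of the 98 rose, Nol9, a kinase that processes the precursor, at 35.1, 24.8 and 31.2 CPM in NMO and at 79.96, 83.3 and 71.4 in NMO+CL. Its log2 fold change was 1.37 (adjusted p = 0.019). With 0.529% of all tested genes called higher in that comparison, 1 of 98 is near the background. The NMO libraries of Nol9 stood beside 19.6, 30.9 and 20.02 CPM in Normal. In NMO+CL against Normal, 29 rose and 0 fell, where 4.79% of all tested genes rose and 4.43% fell. The median log2 fold changes of the 98 genes were 0.49, 0.29 and 0.72, beside -0.01 over all tested genes in each comparison. Without Normal replicate 3 the 29 became 9, and without Normal replicate 1 or NMO+CL replicate 2 they became 14. Over all tested genes, the share called higher also fell, from 4.79% to 2.68%, 2.98% and 2.57% in these settings. The Ftsj3 call in NMO was lost without Normal replicate 1, Normal replicate 3 or NMO replicate 1, and the Nol9 call without NMO replicate 1 or 2 and without NMO+CL replicate 2.

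By role, the 29 calls were 13 of 40 small subunit genes, 13 of 37 large subunit genes, 2 of 12 genes of the RNA exosome, which trims ribosomal RNA ends, and 1 of 9 further RNA polymerase I genes. In this comparison, NMO+CL against Normal, 4.79% of all tested genes rose. In so few genes, 1 of 9 is near that share, and 2 of 12 rests on 2 calls. The small subunit genes were Cirh1a, Utp14a, Utp20, Wdr3, Wdr36, Wdr46, Wdr75, Pwp2, Tbl3, Nol6, Nol10, Mphosph10 and Nat10, with log2 fold changes from 0.99 (Wdr3) to 1.86 (Tbl3). The large subunit genes were Ddx18, Ddx27, Ddx56, Ftsj3, Gtpbp4, Lsg1, Mdn1, Rpf2, Rsl1d1, Sdad1, Mak16, Nol9 and Surf6, from 0.74 (Rsl1d1) to 2.11 (Ftsj3). The exosome genes were Exosc6 (1.12) and Dis3 (1.21), and the RNA polymerase I gene was Taf1d (1.24), a subunit of the promoter selectivity factor.

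Myc itself was not called. It had 29.8, 1.81 and 12.6 CPM in Normal, 41.1, 49.3 and 9.61 in NMO and 12.3, 7.29 and 8.01 for NMO+CL. The Normal and NMO libraries each spread over a wide range and overlapped, and NMO+CL lay within the Normal range. On the log2 scale Myc differed by 1.18 for NMO over Normal (adjusted p = 0.655), -1.86 for NMO+CL over NMO (0.252) and -0.68 for NMO+CL over Normal (0.674). Of the 7 genes of the Myc family and its partners, 6 were tested, 0 rose in any comparison, and 1 fell, Mnt, a repressor that competes with Myc, by 1.36 on the log2 scale in NMO+CL against Normal (adjusted p = 0.0424). In that comparison 4.43% of all tested genes fell, and in so few genes 1 of 6 is near that share. Mnt was at 29.6, 43.2 and 47.6 CPM in Normal, 19.7, 23.7 and 11.4 in NMO and 8.90, 16.8 and 21.3 for NMO+CL, with both injected groups below Normal without overlap. DESeq2 and limma-voom also called it (adjusted p = 0.0226 and 0.0314), and the edgeR call was lost without any 1 Normal library, without NMO replicate 1 and without NMO+CL replicate 1 or 2.

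Features that the choice of genes did not use were read from the annotation of GRCm38 (GENCODE M21). The 45 genes lay on 18 chromosomes. A snoRNA gene lay inside 8 of them, on the same strand: Nop56, Nop58, Dkc1, Wdr43, Tsr1, Ppan, Ncl and Gnl3. That was 17.8% of the 45 genes, beside 2.08% of the tested genes with an annotation. Nop56 (chr2:130274430-130279313, plus strand) held 5 snoRNA genes, Snord57 and Snord110 among them, and Nop58 (chr1:59684971-59719044, plus strand) held 4, with Snord11 and Snord70. Gnl3 (chr14:31012433-31019152, minus strand) held 3, with Snord19 and Snord69. The 8 host genes had median log2 fold changes of 1.04, 0.53 and 1.59 in the 3 comparisons, and the other 37 had 0.73, 0.29 and 1.10. The 237 tested host genes outside the 45 had medians of 0.19, 0.14 and 0.36. These are descriptions without a test. The snoRNAs themselves, which lack the poly(A) tail that the libraries prime from, were not examined.

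Promoter windows of RefSeq (GRCm38.p6, 250 bases before to 50 after each start) were given for 39 of the 45 genes. They were searched for CACGTG, an E-box that Myc and related factors bind, which reads the same on both strands. The motif was in 8 of the 39 windows (20.5%), in 8.09% of all gene symbols with a window and in 11.8% of the tested genes with one. The 8 genes were Rrn3, Wdr43, Ltv1, Tsr1, Nop2, Pes1, Grwd1 and Mybbp1a. The sequences of 5 sites follow, for the genes with the largest change (Grwd1), with calls in NMO (Wdr43 and Grwd1), with a site before the start (Nop2) and for the initiation factor that was not called (Rrn3, both sites). Each is 30 bases of the gene's strand, 5′ to 3′, with the motif in capitals.
Grwd1 (chr7:45830740-45830769, minus strand, motif 35 bases into the transcript): aagggccggagtcgCACGTGtgaaaccgga
Wdr43 (chr17:71616220-71616249, plus strand, motif 18 bases into the transcript): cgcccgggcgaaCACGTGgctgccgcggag
Nop2 (chr6:125131811-125131840, plus strand, motif 60 bases before the start): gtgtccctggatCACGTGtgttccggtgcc
Rrn3 distal (chr16:13780472-13780501, plus strand, motif 215 bases before the start): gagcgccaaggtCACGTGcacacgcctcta
Rrn3 proximal (chr16:13780639-13780668, plus strand, motif 48 bases before the start): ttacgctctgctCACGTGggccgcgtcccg
A match is a run of letters and was not measured as a bound site. Fbl, Rrp12, Gnl2, Rrs1, Bop1 and Npm1 had no window.

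Counting can add reads from other genes to some of the 45. At 11 genes an exon of a gene on the opposite strand lay over the last 500 bases, where the libraries read. Of the 11 neighbours, 0 were called in NMO against Normal, 0 between NMO+CL and NMO, and 1, Samd11, in NMO+CL against Normal, with log2 fold changes from -0.61 to 1.18 in that comparison. Of all tested genes, 0.472%, 0.529% and 4.79% were called higher in these comparisons, and 1 of 11 is near the last share. Idh3b, opposite Nop56, had log2 fold changes of 0.87, 0.11 and 0.98, beside 1.30, 0.38 and 1.68 for Nop56. At 16 genes a stretch of at least 75 bases of the 3′ end matched another annotated gene at 90% identity or more, and for 13 of them such a gene was in the files. The match was with 242 to 428 genes for Polr1b, Nop58, Dkc1, Noc2l, Noc3l and Nip7. Reads with multiple alignments were kept in the counts, so values of these 6 genes are uncertain. Among them, Nop58, Dkc1 and Noc2l were called in NMO+CL against Normal, so these calls carry the same uncertainty.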

How the data were processed

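RNA was measured in 9 libraries of sorted microglia, 3 each from Normal, NMO and NMO+CL mice, grouped by their sample titles. The authors prepared QuantSeq libraries, which are read from the 3′ end of polyadenylated RNA, read them as single reads of 75 bases, used Bowtie2 for alignment to the mouse genome (mm10 in the submitters' processing notes) and counted unique and multiple alignments per gene with bedtools. The deposited values are these read counts, whole numbers without normalization. The annotation and the use of strand were not given in the sources used here. Rows of the same symbol were summed, which gave 23238 symbols from 23282 rows.

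Counts were tested with edgeR 4.0.16 (limma 3.58.1, R 4.3.3). Genes were kept by filterByExpr (minimum count 10, minimum total 15), which left 12292 genes. Scaling used the trimmed mean of M values (TMM), and 1 quasi-likelihood model with a coefficient per group was fitted to all 9 libraries, so that the 3 comparisons shared an estimate of the spread. Tests were two-sided, p-values were adjusted by Benjamini-Hochberg over all tested genes within a comparison, and a call required an adjusted p under 0.05. CPM values are counts relative to the scaled library sizes. Errors are the SD between libraries for CPM and the SE of the fit for log2 fold changes. DESeq2 1.42.0, limma-voom, other scalings and filters, a replicate block and the leaving out of each library were alternatives. The calculations were tested on simulated data.

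The 45 genes, the lists of other pathway genes and of markers, and the naming rule were chosen with earlier results of these data known. The rule gave values per library for 31 of the 45 genes: those called in a comparison, the 5 largest changes per comparison among genes averaging 50 counts or more whose libraries did not overlap, the gene of highest mean level in each role group, and Polr1a, Polr1b, Ubtf and Rrn3. Other pathway genes were named if called, and Myc always. Libraries of a group were taken as separate pools of mice, as the study describes. Between such libraries the chi-square over genes, divided by its degrees of freedom, was 21.9 to 51.1, so no pair agreed within counting noise, as 1 library read again would. That value cannot show whether libraries came from separate pools. Gene positions came from GENCODE M21, similar 3′ ends from blastn 2.17.0+, and promoter windows from RefSeq.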

Additional observations from a re-analysis of the deposited data

How the results depend on the processing

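With 17 alternatives, 9 of which left out 1 library, no alternative called any of the 45 genes lower. In NMO against Normal, the 6 calls became 16 with every gene that had a count, 16 with DESeq2, 3 with only the 6 libraries compared, and 2 to 8 when 1 library was left out. The share of all tested genes called higher moved from 0.472% to 1.07%, 1.32% and 0.275% under the first 3 of these, and to 0.773% with library totals alone. In NMO+CL against NMO, the 0 calls became 1 with RLE size factors, 1 with every gene that had a count, 3 with DESeq2, 1 with limma-voom, and 0 to 1 when 1 library was left out, with 0.553%, 1.04%, 1.55% and 0.667% of all tested genes called higher under the first 4, against 0.529%. In NMO+CL against Normal, the 27 calls stayed between 26 and 29, or 20 and 28 without 1 library. The share of all tested genes called higher was 4.27% to 6.47%, or 2.57% to 4.92% without 1 library. When 1 library was left out, that share was 0.147% to 0.546% in NMO against Normal and 0.138% to 0.577% in NMO+CL against NMO. The median of the 45 genes in NMO against Normal was 0.91 with library totals alone, where the median of all genes moved by 0.11 (log2), which leaves 0.81 relative to it. For the 98 other pathway genes, the 1 call in NMO against Normal became 3 with library totals alone, 13 with every gene that had a count, 9 with DESeq2 and 0 to 2 without 1 library. The 1 call in NMO+CL against NMO became 3 with every gene that had a count, 3 with DESeq2, 2 with limma-voom and 0 to 1 without 1 library, and the 29 in NMO+CL against Normal became 9 to 34 without 1 library. The cause of these changes was not tested. Of 1581 values of single named genes under an alternative, 1487 kept direction and side of the threshold, 36 newly passed it, 50 no longer did and 8 changed sign. None of the 8 was called in either form. Leaving out 1 library gave a range of -0.6175 to 0.0155 for Polr1b in NMO against Normal (highest without Normal replicate 2) and of -0.1435 to 0.4737 in NMO+CL against Normal, below 0 without Normal replicate 3 and, at -0.1203, without NMO+CL replicate 3. For NMO+CL over NMO the range was -0.1315 to 0.1015 for Rrs1, above 0 without NMO replicate 1 and, at 0.0743, without NMO+CL replicate 3. It was -0.1246 (without NMO replicate 2) to 0.2577 for Tsr1, -0.0823 (without NMO replicate 3) to 0.368 for Grwd1 and -0.0122 (without NMO+CL replicate 2) to 0.2284 for Ubtf.

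Across all tested genes, libraries with the same replicate number did not deviate together, with correlations from -0.0164 to 0.0302. Such correlations cannot show whether a smaller set of genes shared a batch, so pairing by number was not settled. With a replicate block the 45 genes gave 7, 0 and 27 calls in the 3 comparisons. Precision differed between genes, with an SE of 0.82 (log2) for Polr1e, at a mean count of 46.9 per library, and of 0.17 for Ncl, and the part of depth in this was not tested.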
